A study of Mus musculus with 2 samples.

Results

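Cytosolic ribosomal protein genes encode the proteins of the small (40S) and large (60S) subunits of the ribosome. The set held 86 of the 46983 genes counted, chosen by name and class alone. It took protein-coding genes whose symbol begins with Rpl or Rps and a digit, with Rplp0, Rplp1, Rplp2 and Rpsa, and left out S6 kinases and symbols marked as pseudogenes. Of these, 77 are canonical subunits, 8 are paralogues or retrocopies of a subunit, and Rps19bp1 encodes a protein that binds RPS19. Fau and Rack1, whose products are also ribosomal, carry other names and were counted separately.

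Both libraries came from 46C cells, mouse embryonic stem cells grown on feeder cells in serum with the cytokine LIF. The knockdown library came from cells with an shRNA to linc1557, a long noncoding RNA, expressed from the vector pLKO.1-TRC. The control library came from cells with a control shRNA. Cells of both kinds were clones with stable virus integration, selected with puromycin, and the labels do not say how many clones entered a library. With 1 library per group the differences have no replicate check, and none was tested. All intervals are 95% and cover counting error of reads only. Repeat reads of 1 molecule were not identified, and where they occur the intervals are too narrow.

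Most canonical proteins occur once per ribosome, and cells make these proteins as one of their largest classes of mRNA. Most of these mRNAs begin with a terminal oligopyrimidine (TOP) tract, a C followed by a run of C and T bases at the very start. Through the tract, mTORC1 and the RNA-binding protein LARP1 adjust translation of the whole class together. Pluripotent stem cells are known for high ribosome production combined with restrained translation. Mammalian genomes also hold many processed pseudogenes of ribosomal protein mRNAs, copies that can take up reads of the gene they came from.

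The start regions below show a tract by a simple rule in 4 members and none by that rule in 3 others that the results turn on. Each window has 40 bases before and 20 from the start annotated by RefSeq on GRCm38.p6, 5′ to 3′ on the strand of the gene. By the rule, capitals mark a run that begins with a C within 5 bases of that start and goes on with at least 4 C or T. The run of C shortly before the Rpl10a start begins further upstream and is not marked. Where a gene has several annotated starts, one with a tract is shown if there is any.
Rps6 (chr4:86857348-86857407, minus strand): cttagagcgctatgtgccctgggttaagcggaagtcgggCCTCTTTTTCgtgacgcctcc
Rps18 (chr17:33955646-33955705, minus strand): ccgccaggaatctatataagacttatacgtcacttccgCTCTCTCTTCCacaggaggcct
Rpl15 (chr14:18270967-18271026, minus strand): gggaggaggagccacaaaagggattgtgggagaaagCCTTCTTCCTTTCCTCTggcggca
Rpl38 (chr11:114668540-114668599, plus strand): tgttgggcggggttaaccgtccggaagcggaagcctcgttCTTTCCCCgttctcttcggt
Rpl10a (chr17:28328431-28328490, plus strand): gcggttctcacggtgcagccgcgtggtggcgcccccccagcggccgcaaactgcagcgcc
Rpl26 (chr11:68901526-68901585, plus strand): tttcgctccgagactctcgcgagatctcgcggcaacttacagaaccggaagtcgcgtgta
Rpl10l (chr12:66284382-66284441, minus strand): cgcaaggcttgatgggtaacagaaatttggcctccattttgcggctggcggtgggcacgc

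The table of start regions held 66 of the 86 members, 57 of them canonical. A gene was counted if any of its annotated starts held the sequence. By the rule above, a tract stood near a start in 27 of the 57 canonical members (47.4%), against 5718 of 27025 genes in the table (21.2%). Start by start, 32 of the 78 start regions of members held one, against 18.3% of all start regions. The letters CCGGAAG, on either strand of the 300-base region, occurred in 24 of the 57 (42.1%) and in 2683 of all genes (9.93%). For AAGATGG, on either strand, the counts were 9 of the 57 (15.8%) and 1967 of all genes (7.28%). TATAA in the 50 bases before the start occurred in 4 of the 57 (7.02%) and in 5.89% of all genes. These are matches of letters only, and a start placed a few bases off hides a tract.

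None of the 85 members that reached 1 CPM (counts scaled to a common library size by TMM) in either library differed by 2-fold. The median log2 ratio of knockdown over control was -0.00, with quartiles of -0.12 and 0.16. The members ran from -0.40 for Rpl10a to 0.52 for Rpl10l. Of all 15850 genes that entered, 14.2% were called, that is, differed at least 2-fold with an interval that excluded 1 (4.68% higher and 9.48% lower in the knockdown). Their median was 0.02, with quartiles of -0.35 and 0.33. Of the 1338 nuclear protein-coding genes at 100 CPM or more, members left out, 10 were called higher and 24 lower. The member that did not enter was Rpl3l, the muscle form of Rpl3, with 6 against 8 counts, the knockdown first here and throughout.

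Counts of the 85 members ranged from 219 to 48480 in the knockdown library, with a median of 10100. In the control library they ranged from 255 to 38174, with a median of 9780. At this depth small differences exceed counting error. By TMM, the interval excluded 0 on the higher side for 35 members and on the lower side for 32. It did so for 5193 and 4939 of the 15850 entered genes. Of the 1338 nuclear protein-coding genes at 100 CPM or more, members left out, it did so for 694 and 436. The spread between cultures or between clones is not part of these intervals.

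**Figure D1:**
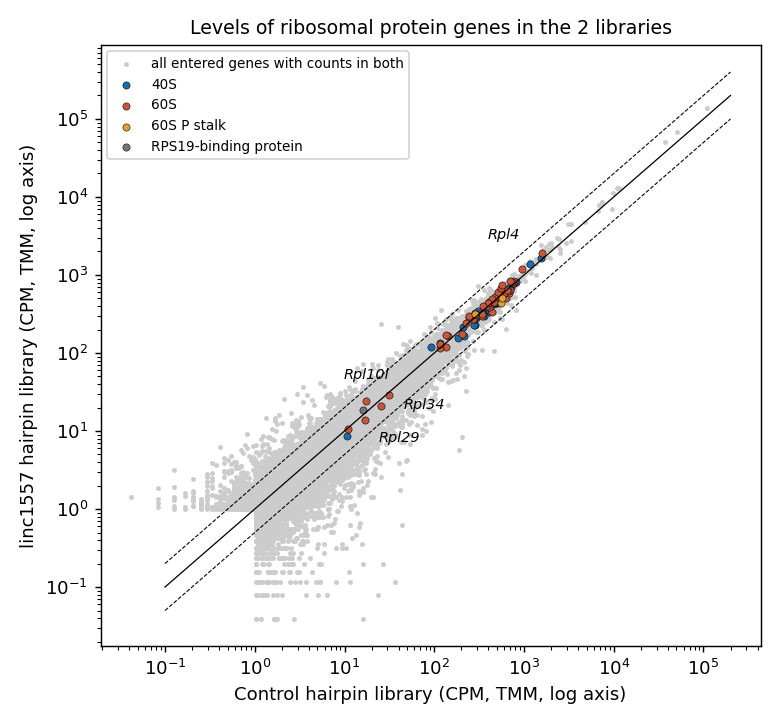
Each point is a gene, with its TMM-scaled CPM in the control library on the x axis and in the knockdown library on the y axis, both on log axes. The solid line marks equal levels and the dashed lines a 2-fold difference. All 85 ribosomal protein genes that entered lie between the dashed lines, with Rpl29 and Rpl34 far below the other canonical members in both libraries.

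Other abundant protein-coding genes had a wider spread of log2 ratios, although their levels were not matched to the members. The 1338 nuclear protein-coding genes at 100 CPM or more, members left out, had a median of 3808.5 control counts, against 9780 for the 85 members. Their log2 ratios had quartiles of -0.13 and 0.28 and a standard deviation of 0.42 on the log2 scale. The standard deviation of the 85 members was 0.20. A narrower limit, a ratio of 5 to 4 between the libraries (0.32 on the log2 scale) with an interval excluding 1, was added after the 2-fold count was seen. It was passed by 9 of the 85 members (10.6%), 4 higher and 5 lower, and by 45.5% of all entered genes, 21.7% higher and 23.8% lower. Of the other protein-coding genes at 100 CPM or more, 32.5% passed it.

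**Figure D2:**
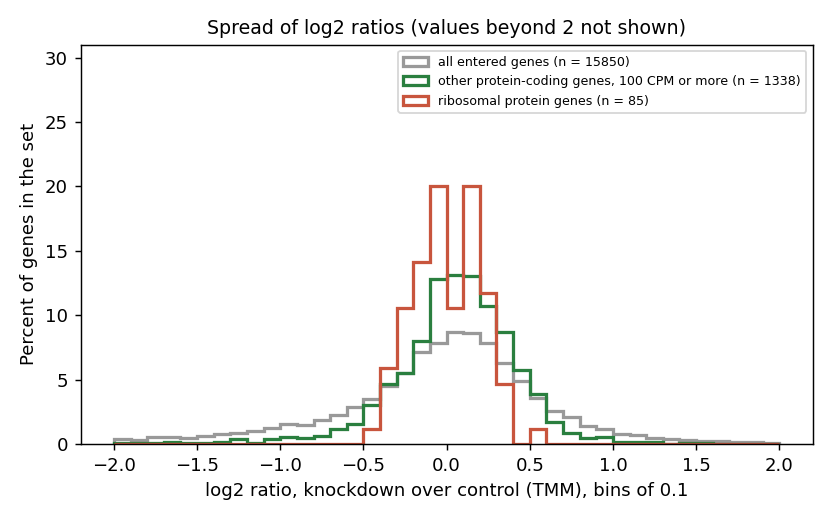
The y axis gives the percent of each set of genes that falls in each 0.1-wide bin of the log2 ratio on the x axis. The 85 ribosomal protein genes occupy a narrower range, -0.40 to 0.52, than 1338 other abundant protein-coding genes or all 15850 entered genes.

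Summed over all 86 members, ribosomal protein genes took 3.60% (3.597 to 3.611, Wilson interval) of the knockdown counts and 3.81% (3.805 to 3.821) of the control counts. As a share of nuclear protein-coding counts the order was the other way, 6.04% (6.030 to 6.053) in the knockdown and 5.97% (5.959 to 5.983) in the control library. The ratio of the shares was thus 0.945 over all counts and 1.01 over protein-coding counts. Mitochondrial ribosomal RNA, which shares the denominator in the first case, took 14.5% of the knockdown and 12.6% of the control counts.

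The direction of the small differences depended on the scaling. By TMM, 41 members had a log2 ratio above 0 and 44 below. With total-count scaling the split was 30 against 55, and with DESeq2 size factors it was 51 against 34. TMM over nuclear protein-coding genes gave 47 against 38. The median of all entered genes moved with it, to -0.10 under total counts and 0.06 under DESeq2 size factors. Relative to that median, the members' median lay between -0.03 and -0.02 under these scalings.

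**Figure D3:**
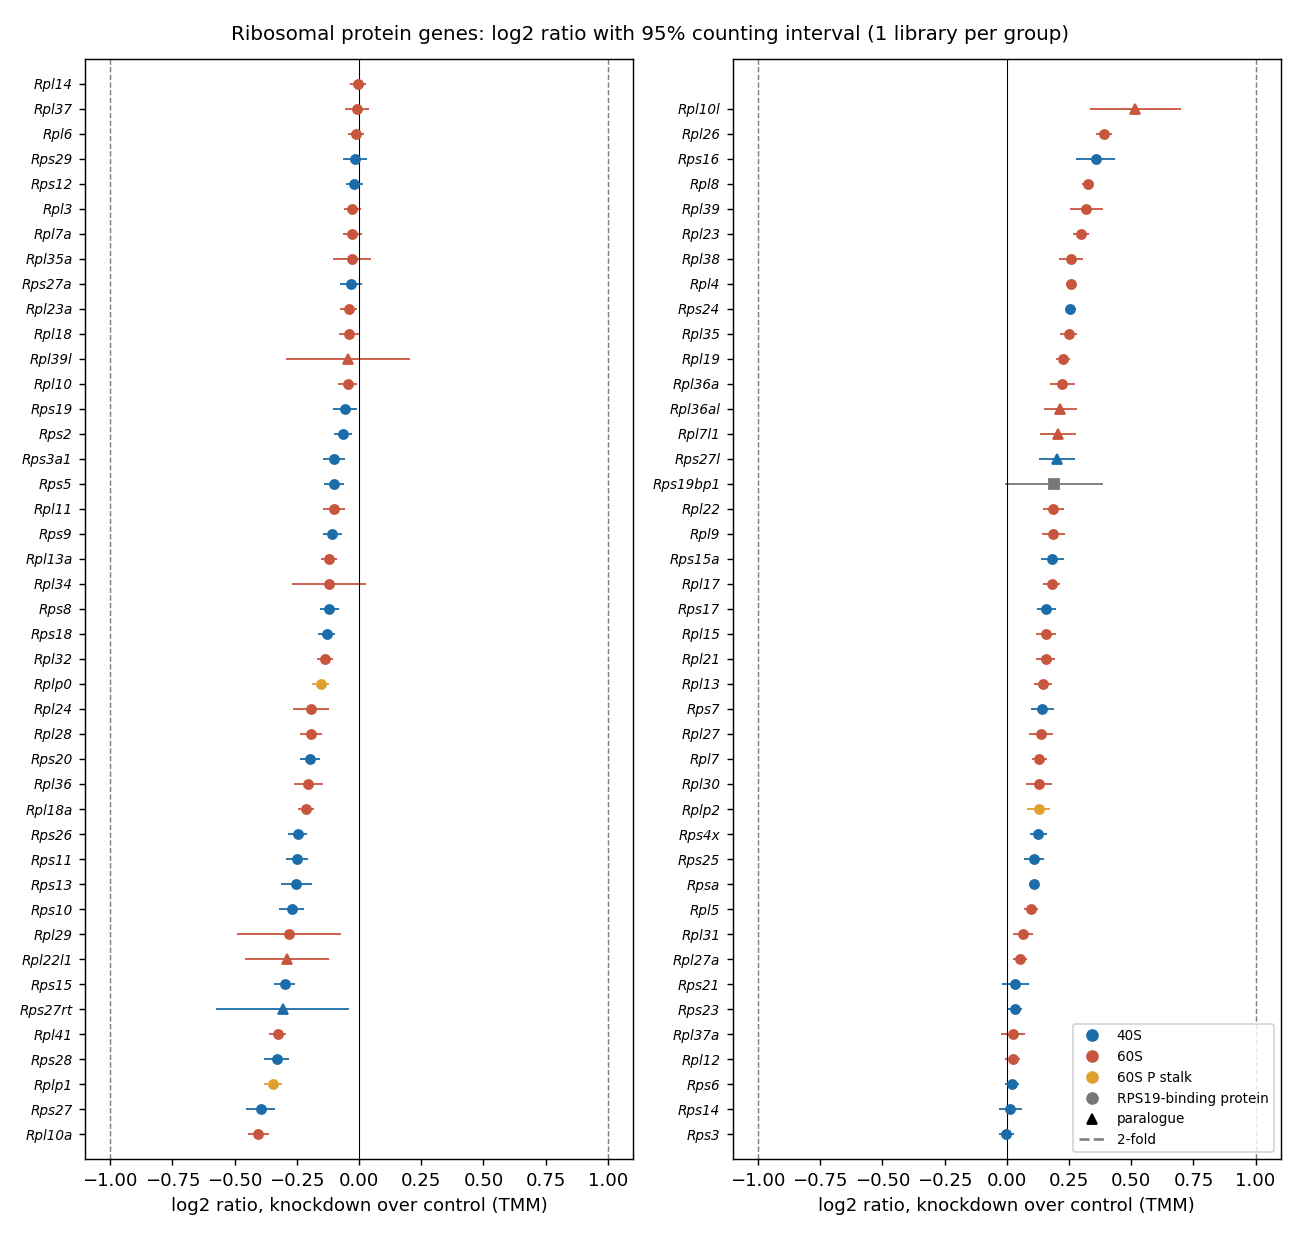
Points give the log2 ratio of knockdown over control for each of the 85 genes, ordered from lowest in the left panel to highest in the right, and bars the 95% counting interval. Dashed lines mark 2-fold, which no gene reached. The lowest gene is Rpl10a (-0.40) and the highest Rpl10l (0.52).

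Among the canonical members of the small subunit, 12 of 31 had a ratio above 0 and the median was -0.03. Among the 46 of the large subunit, stalk included, 24 were above 0 and the median was 0.02. The quartiles overlapped, -0.16 to 0.07 for the small and -0.11 to 0.17 for the large subunit. Summed counts of the 2 subunits had log2 ratios of -0.01 and 0.06.

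On the lower side past the 5 to 4 limit were Rpl10a, Rps27, Rplp1, Rps28 and Rpl41. Rpl10a (ENSMUSG00000037805, chromosome 17, 28328471 to 28331033 on GRCm38), a protein near the exit site of tRNA, had 8485 against 10571 counts. That is a log2 ratio of -0.40 (-0.45 to -0.36), the lowest of the canonical members. Rps27 (ENSMUSG00000090733, chromosome 3, 90212522 to 90213651), a zinc-finger protein of the small subunit, had 4192 against 5187 counts and a ratio of -0.39 (-0.45 to -0.34). Rps28 had 5840 against 6911 counts (-0.33) and Rpl41, the smallest protein of the ribosome, 13016 against 15359 (-0.33). Rps15 had 8490 against 9827 counts (-0.30) and did not reach it.

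On the higher side past that limit were Rpl26, Rps16, Rpl8 and the paralogue Rpl10l. Rpl26 (ENSMUSG00000060938, chromosome 11, 68901583 to 68906989), which besides its place in the ribosome binds p53 mRNA, had 19009 against 13634 counts. Its log2 ratio of 0.39 (0.36 to 0.42) was the highest of the canonical members. Rps16 had 3030 against 2227 counts (0.36) and Rpl8, which lies near the peptidyl transferase centre, 30410 against 22810 (0.33). Rpl39, a protein of the exit tunnel, followed with 4316 against 3257 counts (0.32), and Rpl23 with 17588 against 13462 (0.30). Neither passed the limit, of which Rpl39 fell just short.

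The limit was crossed by other genes under other scalings. Total-count scaling put 1 member higher and 15 lower past a ratio of 5 to 4, DESeq2 size factors 6 higher and 2 lower, and TMM over nuclear protein-coding genes 5 higher and 3 lower.

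The 3 proteins of the P stalk, which recruits the elongation factors, did not move together. Rplp0, the base of the stalk, had 12983 against 13594 counts (log2 ratio -0.15). Rplp1 had 11189 against 13382 (-0.35, interval -0.38 to -0.31), and its partner Rplp2 had 8026 against 6912 (0.13, interval 0.08 to 0.17). Rplp1 and Rplp2, which form a dimer, thus lay on opposite sides of 0 by TMM and their intervals did not overlap. Under total-count scaling Rplp1 stood at -0.46 and Rplp2 at 0.01.

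Some further members are known for roles beyond the assembled ribosome. Rpl5 and Rpl11, which with 5S rRNA form the particle that restrains MDM2, had 21352 against 18776 counts (0.10) and 8137 against 8221 (-0.10). Rpl5 changed sign under total-count scaling. Rps6, the substrate of S6 kinase, had 21131 against 19607 counts (0.02, below 0 under total counts). Rpsa, also known as the laminin receptor, had 42780 against 37366 (0.11, and -0.01 under total counts). Rpl38, which is needed for translation of Hox mRNAs in the mouse embryo, had 7538 against 5933 counts (0.26, interval 0.21 to 0.31).

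Paralogues were set against the main copy within each library, so that scaling does not enter. The percentages are of counts, not divided by length. For Rps27l, a p53-responsive relative of Rps27, counts were 82.4% of those of Rps27 in the knockdown (78.8 to 86.2) and 54.4% in the control library (52.0 to 57.0). Rps27l had 3455 against 2824 counts and Rps27, as above, moved the other way. The ratio of Rps27l to Rps27 was thus higher in the knockdown library by 0.60 on the log2 scale (exact interval 0.50 to 0.69), the largest shift of the 8 pairs. Rps27 also has an intact retrocopy, Rps27rt, with the same coding sequence over all 252 bases and 219 against 255 counts, so reads of the 2 genes may not have been told apart.

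Rpl10l, an intronless, mainly testis-expressed copy of the X-linked Rpl10, had 629 against 414 counts, 5.56% and 3.77% of Rpl10. The shift was 0.56 (0.38 to 0.75), with Rpl10 itself at -0.05 from 11316 against 10993 counts. For Rpl22l1, which RPL22 is known to repress, the shift was in the other direction. It had 536 against 616 counts, 5.27% of Rpl22 in the knockdown against 7.33% in the control, a shift of -0.48 (-0.65 to -0.30). Rpl22 stood at 0.19.

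Rpl39l, another copy expressed mainly in testis, had 274 against 266 counts, 6.35% and 8.17% of Rpl39, with a shift of -0.36 (-0.62 to -0.11). The coding sequences of both are shown because they are the shortest of these pairs, with capitals at the 23 of 153 positions where they differ. They were compared from the start codon without the stop, as spliced in GENCODE M21.
Rpl39: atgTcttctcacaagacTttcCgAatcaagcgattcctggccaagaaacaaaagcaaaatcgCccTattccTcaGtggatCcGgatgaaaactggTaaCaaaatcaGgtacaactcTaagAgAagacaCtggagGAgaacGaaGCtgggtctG
Rpl39l: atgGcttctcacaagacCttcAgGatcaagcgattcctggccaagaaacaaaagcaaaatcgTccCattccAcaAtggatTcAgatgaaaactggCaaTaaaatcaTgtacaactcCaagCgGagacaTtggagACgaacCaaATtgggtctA

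In the other pairs the shift was small or could not be resolved. Rpl36al had 4178 against 3388 counts, 56.6% and 56.9% of Rpl36a, a shift of -0.01 (-0.09 to 0.07). Rpl7l1 had 3383 against 2760 counts, with a shift against Rpl7 of 0.07 (-0.00 to 0.15). Rps4l, annotated as a transcribed pseudogene, shifted by -0.14 (-0.21 to -0.07) against Rps4x. For Rpl3l against Rpl3 the interval ran from -2.28 to 1.24.

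Levels were compared between genes as CPM per kilobase of 1 coding transcript per gene. In the control library the 77 canonical members had a median of 543 CPM per kilobase, from 28.7 for Rpl29 to 1457 for Rpl41. In the knockdown library the median was 552, from 23.6 for Rpl29 to 1411 for Rpl26. The order was similar in the 2 libraries, with a Spearman rho of 0.94 across the 77 genes, which share both libraries and are not replicates. By transcript length the middle of the distribution was tight. The upper quartile was 1.55 times the lower in the control and 1.64 times in the knockdown library.

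By the length column of the deposited table, which for several members differs widely from the transcript, the order changed and the middle was wider. That length was the planned measure, and transcript length was added later. The upper quartile was 3.24 times the lower in the control and 3.22 times in the knockdown library by the deposited length. Rps24, Rps26, Rps12, Rplp1 and Rpl4 then led the control library, with 1372, 1162, 1156, 1121 and 1113 CPM per kilobase. Rpl34 (12.0), Rpl29, Rpl35a (33.2), Rps15a (48.8) and Rps19 (62.7) came last. Rps15a was listed with 6270 bases where its coding transcript has 640, and on that transcript it had 478 CPM per kilobase.

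Rpl29 and Rpl34 were the lowest canonical members by either length, and most reads of their sequence stood in other rows. Rpl29 (ENSMUSG00000048758, chromosome 9, 106429454 to 106431568) had 353 against 404 counts. Its 22 processed pseudogene copies together had 9606 and 10154, 96.2% of the family's control counts. Rpl34 had 745 against 762 counts and its 5 copies 5993 and 5495, 87.8% of the control counts. A copy is a pseudogene transcript at least 95% identical over at least 80% of the coding sequence. Below are the first 120 coding bases of both genes with the copy that had the most control counts, capitals marking mismatches.
Rpl29: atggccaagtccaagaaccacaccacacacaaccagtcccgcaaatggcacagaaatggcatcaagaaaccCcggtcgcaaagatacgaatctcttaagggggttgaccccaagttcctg
Gm13841: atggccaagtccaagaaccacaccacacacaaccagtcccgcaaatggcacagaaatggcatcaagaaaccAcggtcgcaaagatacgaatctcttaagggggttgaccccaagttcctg
Rpl34: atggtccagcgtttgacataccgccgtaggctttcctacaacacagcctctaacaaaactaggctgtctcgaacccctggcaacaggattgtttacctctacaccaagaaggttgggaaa
Rpl34-ps1: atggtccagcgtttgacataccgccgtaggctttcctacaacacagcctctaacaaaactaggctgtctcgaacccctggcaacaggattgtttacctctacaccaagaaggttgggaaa

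Over their whole coding sequences, Gm13841 (chromosome 5) differs from Rpl29 at 3 of 480 bases and Rpl34-ps1 (chromosome 6) from Rpl34 at 2 of 351. Gm13841 alone had 3955 against 4117 counts, and Rpl34-ps1 had 5492 against 4904. Whether these reads came from the gene or the copy cannot be told from counts per gene.

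Such copies, each assigned to 1 member, stood under 75 of the 86 members, 451 in all, and took 206476 knockdown and 196619 control counts. Rps27 and Rps27rt have the same coding sequence, and their 2 shared copies stand under Rps27rt. Rps27 is thus counted as a member without copies. Rpl21 had the most, 45. In 8 families the copies had more control counts than the gene: Rpl29, Rpl34, Rps3a1, Rps2, Rpl21, Rpl30, Rpl35a and Rpl7a. For 56 members the copies had at least 200 control counts together, and in 46 of them gene and copies lay on the same side of 0. Across these 56 families Pearson's r between the log2 ratios of gene and copies was 0.67 and Spearman's rho 0.75, a description over genes that share libraries, scaling and sequence.

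**Figure D4:**
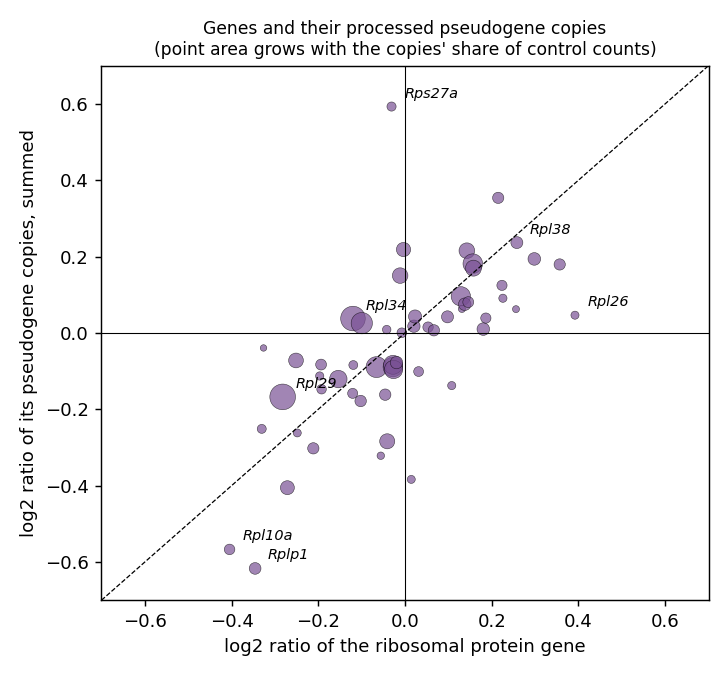
The x axis gives the log2 ratio, knockdown over control, of 56 ribosomal protein genes and the y axis that of their processed pseudogene copies, counts summed. The dashed line marks equal ratios and larger points have a larger share of control counts in the copies. Rpl10a and Rplp1 are low on both axes, while the copies of Rps27a (0.59) stand apart from the gene (-0.03).

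Gene and copies were far apart for Rps27a, which encodes a ubiquitin fused to a small-subunit protein. The gene had 8504 against 8178 counts (-0.03), while its copies had 1125 against 702 (0.59, interval 0.46 to 0.73). For Rpl10a the single copy had 1050 against 1464 counts (-0.57), the same direction as the gene. When counts of gene and copies were summed, Rpl29 stood at -0.17 and Rpl34 at 0.02.

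By chromosome, the members followed other genes in part. All 4 members on chromosome 10 (Rpl41, Rps15, Rps26 and Rps12) were below 0 by TMM, Rps12 only just and above 0 with DESeq2 size factors or TMM over protein-coding genes. Their median was -0.27, where the 688 other entered genes of that chromosome had a median of -0.10. On chromosome 17, 6 of 7 entered members were below 0 with a median of -0.20, and the other 725 genes had a median of -0.16. On chromosome 11, 5 of 7 were above 0, with a median of 0.23 beside 0.11 for the other 1258 genes. Other nuclear protein-coding genes at 100 CPM or more had medians of -0.01 on chromosome 10, -0.16 on chromosome 17 and 0.11 on chromosome 11. Over the 14 chromosomes with at least 3 members, the medians of members and of all other entered genes had a Pearson's r of 0.71 and a Spearman's rho of 0.75. These medians share both libraries and the scaling, and some rest on 3 genes.

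Chromosome 14 did not follow that order. Its other 535 entered genes had a median of -0.43, whereas those with at least 100 CPM had 0.04. Rps24 (24487125 to 24496959), mutated in some patients with Diamond-Blackfan anaemia, had 35249 against 27782 counts, a log2 ratio of 0.26 (0.23 to 0.28). Rpl15 (18267823 to 18271391), the start of which is printed above, had 11335 against 9563 counts (0.16, interval 0.12 to 0.20). On chromosome 3 the 4 members had a median of -0.20 and the other genes -0.03, with 0.05 for other nuclear protein-coding genes at 100 CPM or more.

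**Figure D5:**
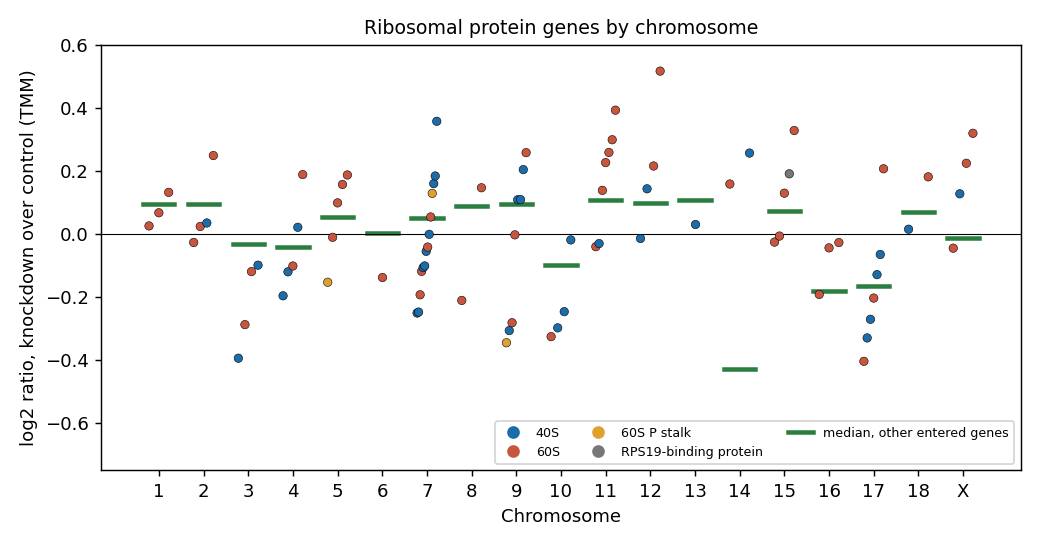
Each point is 1 of 85 ribosomal protein genes, placed by chromosome on the x axis and by log2 ratio, knockdown over control, on the y axis. Green bars are the medians of the other entered genes of the chromosome. The members of chromosomes 10 and 17 lie mostly below 0, those of chromosome 11 mostly above, and both genes of chromosome 14 above a median of -0.43.

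Base composition went with the ratios to a degree. The 27 canonical members with the lowest GC content of the transcript (41.3 to 50%) had a median log2 ratio of 0.10, and 18 of them were above 0. The 26 with the highest (53.8 to 60.8%) had a median of -0.08, with 10 above 0. Pearson's r between GC content and log2 ratio was -0.31 over the 77 canonical members and -0.21 over 1337 other nuclear protein-coding genes at 100 CPM or more. The part of base composition in the differences between members was not tested. By the letters of the start region, the 27 canonical members with a tract by the rule had a median log2 ratio of 0.02. The 30 without one by that rule had 0.01. The 4 with TATAA ran from -0.39 to -0.11 with a median of -0.19, and the 53 without it had a median of 0.02. For CCGGAAG the medians were 0.04 in the 24 that held it and -0.00 in the 33 that did not. For AAGATGG they were -0.03 in 9 and 0.02 in 48.

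Other genes of the translation machinery stayed under 2-fold in nearly all cases. Of the 1338 nuclear protein-coding genes at 100 CPM or more, members left out, 10 were called higher and 24 lower. Fau and Rack1 had log2 ratios of -0.15 and 0.07. None of 63 ribosome biogenesis factors, 36 initiation factors, 11 elongation and release factors or 15 RNA polymerase I genes that entered was called, beside 14.2% of all entered genes. Their medians were -0.01, 0.05, -0.02 and 0.02. The most abundant were Npm1 (-0.06) and Ncl (0.03), nucleolar chaperones of ribosome assembly, and the elongation factor genes Eef1a1 (-0.02) and Eef2 (-0.23). The initiation factor genes Eif4a1, the helicase that unwinds leaders, and Eif4g2 stood at -0.09 and -0.34, and the polymerase I factor genes Rrn3 and Taf1d at -0.03 and -0.09.

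Of 18 TOP mRNA genes outside the ribosomal protein set none was called, and the median was -0.05. The lists overlap. Several of these genes, such as Eef1a1, Eef2 and Npm1, are also in the lists above, and Gas5 is also a snoRNA host gene. Among all entered genes 14.2% were called and 9.48% were called lower, which holds as the background for the TOP list and the following lists. Tpt1, a TOP mRNA for a growth-related protein, came nearest with 7188 against 13121 counts, a log2 ratio of -0.96. It passed 2-fold under total-count scaling. Of 14 entered snoRNA host genes, Snhg18 was called lower, with 21 against 66 counts (-1.74), and the median was -0.15. Of 18 genes around mTORC1, S6 kinase and MYC, Mycn was called lower, with 1361 against 3366 counts (-1.39), and Myc was at 0.02. Larp1, whose product binds the TOP tract, had 5136 against 6461 counts (-0.42). Eif4ebp1, the mTORC1-regulated inhibitor of translation initiation, had 4711 against 3031 (0.55). None of the 6 entered genes linked to the 5S particle was called. Mdm4 had a log2 ratio of 0.32 and Trp53 of -0.41.

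Both libraries showed stem cell markers at high counts, with Pou5f1 at 8474 against 7269 and Sox2 at 5841 against 5430. None of 6 such markers was called, but all 6 had a log2 ratio above 0 by TMM (Sox2 below 0 with total-count scaling), 5 of them with the interval above 0, and the median was 0.25. Sox2 (0.02) and Pou5f1 (0.13) had the smallest ratios, and Zfp42 (0.47) and Esrrb (0.51) the largest. Feeder fibroblast markers differed, with 9 of 14 called lower in the knockdown library, none called higher and a median of -1.48, beside 9.48% of all entered genes called lower. Their summed CPM was 1497 in the knockdown against 2428 in the control. Fn1, which fibroblasts express strongly, made up most of the knockdown sum, with 1058 against 1199 CPM (-0.18), and without it the sums were 439 against 1229. None of these 14 markers was at 0, and Timp3 (-2.66), Col6a3 (-2.44), Col3a1 (-2.16) and Acta2 (-1.96) were the lowest. Dcn was the highest at 0.26 (0.06 to 0.45), the only 1 of the 14 above 0. Fibroblasts express ribosomal protein genes too. Fewer fibroblasts, less RNA per fibroblast and a change of these markers in other cells of the culture cannot be told apart in bulk RNA. The part of feeder RNA, and of the stem cell share, in the small differences between members was not tested. The linc1557 transcript was not matched to a row, so the knockdown was not checked.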

How the data were processed

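Per the labels' protocols, total RNA was extracted with Trizol and prepared with the TruSeq RNA kit of Illumina. The authors deposited 1 table of raw counts for each gene with its length. The submitters' processing notes name HISAT2, featureCounts, Trim Galore and DESeq, and the builds mm10 and GRCm38. Not given in the sources used here: tool versions, annotation release, strand setting and the handling of reads with several matches.

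The knockdown library totalled 26693282 counts, the control library 23146210. Symbols came from GENCODE M21 (GRCm38), which lacked 495 identifiers with 0.119% and 0.128% of the counts. Its gene lengths differ from the deposited ones for some genes, so it is not the exact annotation used. TMM factors (0.960 and 1.04) came from edgeR 4.0.16 in R 4.3.3. A gene entered at 1 CPM in either library, and ratios carry no pseudocount. Intervals of ratios are exact (Clopper-Pearson, or conditional for pairs), from scipy 1.17.1, numpy 2.4.6 and pandas 2.3.3 under Python 3.11.15. Levels are CPM per kilobase, which order genes as TPM does. Figures were drawn with matplotlib 3.10.9. Copies were found with BLAST 2.17.0. Calling was tested on simulated data.

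The members and gene lists were chosen with earlier results of these data known. Members named in the text are the 8 highest and 8 lowest ratios, the 5 highest and lowest levels, paralogue pairs, those on chromosome 14 and 8 with known roles. From other lists come up to 4 called genes or the 2 most abundant. Rps18, Rps27a and the genes of the pseudogene, chromosome and mTORC1 passages beyond these, with Tpt1, Mdm4 and Trp53, were chosen after their values were seen. Mitochondrial ribosomal protein genes were added later. A result for 1 further gene is not reported here.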

Additional observations from a re-analysis of the deposited data

How the results depend on the processing

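No member was called 2-fold under any of the 7 alternatives tried for that count (3 scalings, no filter, a 5 CPM filter, a 1.5-fold threshold, canonical subunits only). The median log2 ratio moved with the scaling, to -0.12 with total counts, 0.037 with DESeq2 1.42.0 size factors and 0.018 with TMM over nuclear protein-coding genes. It was 0.016 without members that have pseudogene copies and 0.019 with gene and copies summed, both chosen after seeing the data. No filter, a 5 CPM filter, a prior count of 2, canonical subunits only and leaving out chromosome 14 moved it by less than the counting interval of the summed counts. The ratio of summed shares was 1.01 over protein-coding counts. The number of members past a ratio of 5 to 4 was 16 with total counts and 2 among the members without copies, a smaller set. These 2 were Rpl8 and Rps27, and the copies that Rps27 shares with Rps27rt were assigned to Rps27rt. The highest canonical level exceeded the lowest 115-fold by the deposited length and 50.7-fold by transcript length. Among other lists, total counts added 1 call to the TOP mRNA genes, and TMM over protein-coding genes 1 to the elongation factors, where Eef1a2 (5 against 17 counts) then entered. The shifts of paralogue ratios between libraries do not depend on scaling or length by construction. The percentages of the main copy are of counts and do depend on length. No paired analysis was possible because each group has 1 library.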

Other observations

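The 78 entered genes for the mitochondrial ribosome, a separate set of proteins that translate the transcripts of the mitochondrial genome, had a median log2 ratio of 0.17, with quartiles of -0.09 and 0.29. None was called, beside 14.2% of all entered genes. By TMM 54 were above 0, beside 8219 of all 15850 entered genes. Of the 1338 nuclear protein-coding genes at 100 CPM or more, cytosolic members left out, 798 were above 0. Such counts move with the scaling, as for the cytosolic genes. The most abundant of the 78 were Mrpl15, with 3563 against 2730 counts, knockdown first (0.30), and Mrps5, with 3343 against 2165 (0.54). The ends of the range were Mrps34 (-0.74, 275 against 432 counts) and Mrps14 (0.69, 533 against 311). Past a ratio of 5 to 4 were 24 of the 78 (30.8%), beside 45.5% of all entered genes and 32.5% of other protein-coding genes at 100 CPM or more. Levels were not matched. The median was 663.5 control counts for the 78 genes, 325 for all entered genes and 3808.5 for the genes at 100 CPM or more. Of the 85 cytosolic genes, whose counts were higher, 9 passed that ratio. The groups were chosen by name after earlier results were known, and the difference between them was not tested.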
